A study of Mus musculus with 6 samples.

Results

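The inhibin and activin system of the mouse ovary was described through 9 genes. Inha, Inhba and Inhbb encode the subunits, Fst and Fstl3 encode binding proteins that neutralise activin, Acvr1b, Acvr2a and Acvr2b encode activin receptors, and Tgfbr3 encodes the inhibin co-receptor betaglycan. They were taken by NCBI Gene ID from a list of names, and all 9 were found among the 45679 gene symbols of the series. No measured value entered that matching, but the list was chosen with earlier results of these data known. All 9 also passed the filter on low values, which asked for a value of 1 or more in 2 or more libraries on the TPM scale (transcript abundance scaled for gene length and for the library's total) and left 16473 genes to test.

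RNA came from whole ovaries of wild-type BDF1 mice, a hybrid laboratory strain. The young PBS group was 8 weeks old and received PBS, the old PBS group was 65 weeks old and received PBS, and the old MIT-001 group was 65 weeks old and received MIT-001, a small-molecule scavenger of mitochondrial reactive oxygen species. Both agents were injected into the peritoneum for 7 days, and the labels state a dose of 0.5 mg/kg. Each group had 2 libraries. The labels mention 20 young and 40 old mice in the study as a whole, but not how many gave RNA, whether animals were pooled, or whether the libraries of a group came from separate animals, so p-values measure only the spread between these libraries.

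Inhibins and activins are dimers built from a shared set of subunits. An alpha subunit (Inha) joined to a beta subunit (Inhba or Inhbb) gives inhibin, which lowers follicle-stimulating hormone (FSH) output from the pituitary, whereas a pair of beta subunits gives activin, which raises it and also acts within the follicle. Granulosa cells of growing follicles are the main ovarian source of these subunits and of follistatin. Activin binds a type II receptor (ACVR2A or ACVR2B), which recruits the type I receptor ACVR1B and leads to phosphorylation of SMAD2 and SMAD3, and inhibin bound to betaglycan occupies the type II receptors without that signal.

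The upstream sequences of the beta subunit genes are shown because the groups did not overlap for either gene but stood in a different order, and because the 2 regions are unlike in composition. Both are the 250 bases before the start that the RefSeq promoter table gives for the gene (GRCm38.p6, the mm10 assembly), printed 5′ to 3′ on the gene's strand, with matches to a searched motif in capitals. The Inhba window, chr13:16011601-16011850 on the plus strand, ends 1 base before the longer GENCODE transcript, inside the range the files give for the gene. It held 43.2% G and C, and its capitals mark TATAAA at bases -91 to -86 from the start.
Inhba: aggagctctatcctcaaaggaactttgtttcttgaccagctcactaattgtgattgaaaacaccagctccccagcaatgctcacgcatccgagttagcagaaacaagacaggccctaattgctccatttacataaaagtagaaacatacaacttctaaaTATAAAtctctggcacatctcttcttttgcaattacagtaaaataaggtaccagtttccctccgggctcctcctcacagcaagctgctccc
The Inhbb window, chr1:119422249-119422498 on the minus strand, held 68% G and C, and its capitals mark a GC box, CCGCCC on this strand, at bases -122 to -117.
Inhbb: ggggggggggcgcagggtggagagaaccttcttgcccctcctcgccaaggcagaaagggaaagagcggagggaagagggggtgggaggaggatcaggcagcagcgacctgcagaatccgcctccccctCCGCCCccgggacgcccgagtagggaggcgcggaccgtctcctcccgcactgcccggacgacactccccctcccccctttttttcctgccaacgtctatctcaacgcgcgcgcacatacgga
The median over 32851 RefSeq windows of this length was 52.4% G and C, so the 2 genes lay on opposite sides of it. Windows were found for 7 of the 9 genes, without Fst and Tgfbr3. Searched on both strands, TATAAA was in 2 of these 7 (Inhba and Fstl3) and in 12.37% of all windows, and GGGCGG was in 5 of 7 and in 32.74% of all windows. The cyclic AMP response element TGACGTCA, its shorter core TGACG, the SF-1 site CAAGGTCA, the AP-1 motif TGANTCA and the SMAD palindrome GTCTAGAC were in none of the 7 windows, and in 1.546%, 17.77%, 1.333%, 6.749% and 0.1674% of all windows. TGACG lies within TGACGTCA, so those matches overlap. A missing match says only that these letters are not in the 250 bases. The table's start for Inha lies within the gene, and 160 of the 250 bases of that window are coding sequence of Inha itself, so the window does not describe the region before its GENCODE start. In the Acvr2b window 60 bases are exons of the gene.

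Libraries carried 6.34 to 7.14 gigabases of aligned reads, estimated from coverage. The sum of 10 granulosa cell marker genes was 1254 and 963 TPM in the young PBS libraries (replicates 1 and 2), 2733 and 3565 in the old PBS libraries, and 1168 and 1547 in the old MIT-001 libraries. The sum of 10 oocyte markers was 298 and 35.6, then 454 and 480, then 84.6 and 42.2 TPM in the same order, and no oocyte or granulosa marker was at 0 in any library. Oocytes are lost from the ovary with age, yet the libraries labelled old PBS held the highest oocyte and granulosa sums and the lowest macrophage sums (96.9 and 111 TPM, against 574 and 607 in young PBS). Directions below are therefore those of the library labels. Young PBS replicate 2 stood apart from replicate 1, with a luteal marker sum of 20739 against 1633 TPM. Most of that sum was Akr1c18 (13608 against 425 TPM), while the luteal marker Lhcgr was lower in replicate 2 (137 against 214). The sum of the oviduct markers reached 697 and 395 TPM with MIT-001, against at most 151 elsewhere. Most of it was Ovgp1 (567 and 215 TPM). Pax8 and Epcam were also highest in both MIT-001 libraries. Foxj1 had its lowest value in MIT-001 replicate 1 (0.867 TPM) and its highest in replicate 2 (67.0). In whole-tissue RNA, fewer cells of a type and less RNA per cell cannot be told apart.

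**Figure D1:**
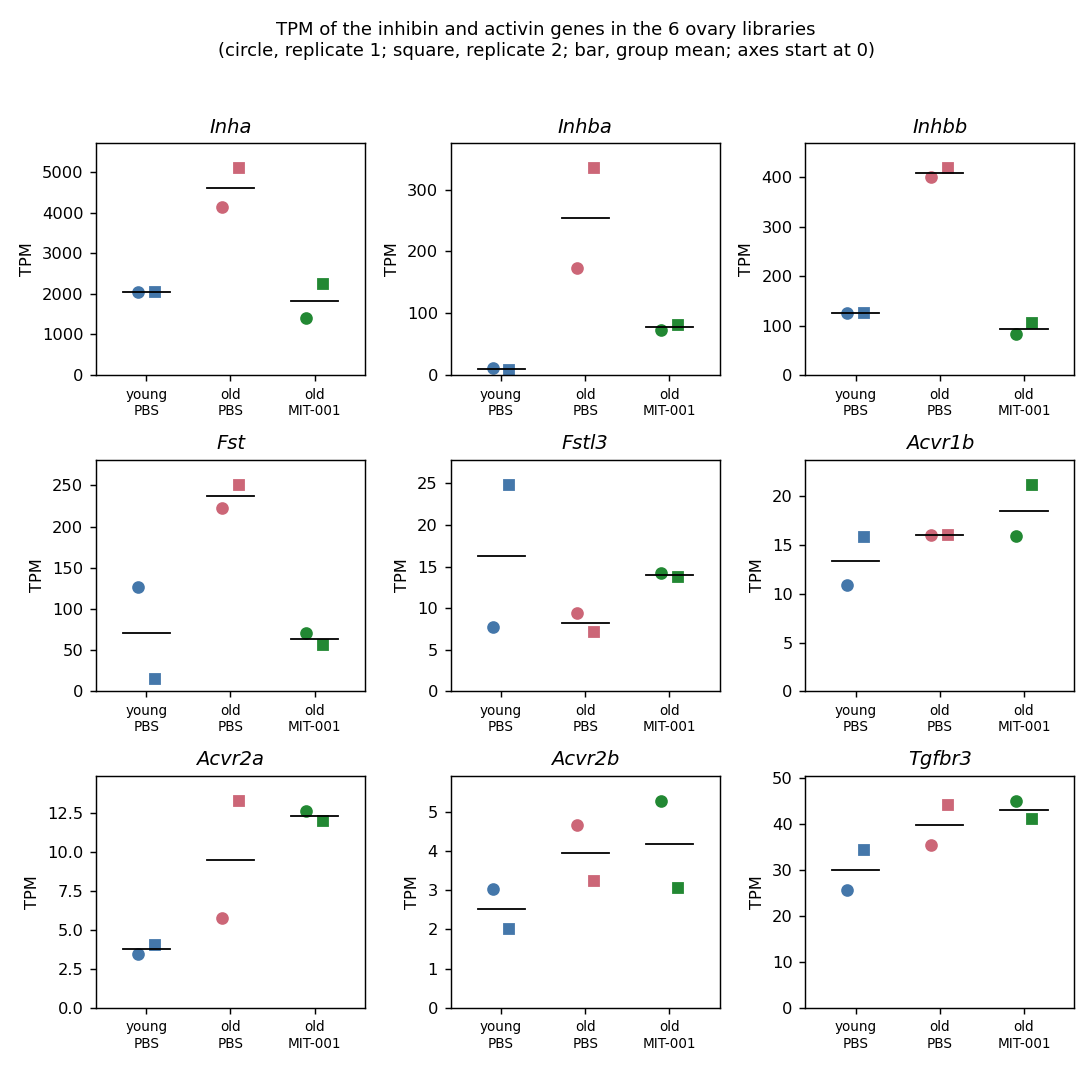
TPM (vertical axes, starting at 0) of the 9 genes by group, with a circle for replicate 1, a square for replicate 2 and a bar for the group mean. Inha, Inhba, Inhbb and Fst were highest in both old PBS libraries, while no library passed 21.1 TPM for Acvr1b, Acvr2a or Acvr2b.

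All 3 subunit genes were highest in both libraries labelled old PBS, at levels that differed widely between them. Inha, the alpha subunit, is a protein-coding gene of 2 exons at chr1:75507077-75510366 (mm10, plus strand). Its TPM was 2048 and 2051 in young PBS, 4145 and 5098 in old PBS, and 1399 and 2235 in old MIT-001. Old PBS did not overlap either other group, while the young PBS values lay between the MIT-001 values. Group means were 2050.0 ± 2.11 (SD, n = 2), 4621 ± 674 and 1817 ± 591 TPM. Inha was the most abundant of the 9 genes in every library, and its lowest value was above the highest value of any other member. Its coverage per FPKM was also below the value that most often recurs in a library, by nearly the same factor in all libraries, and from coverage its group means were 935, 2109 and 836 TPM, which keeps their order.

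Inhba, which encodes the beta A subunit of activin A and inhibin A, lies at chr13:16004256-16031609 on the plus strand. Its TPM was 11.9 and 8.66 in young PBS, 174 and 335 in old PBS, and 72.7 and 81.5 in old MIT-001. The groups did not overlap, with young PBS lowest and old PBS highest. The means were 10.3 ± 2.26 TPM in young PBS, 254 ± 114 in old PBS and 77.1 ± 6.21 in old MIT-001 (SD, n = 2). Inhba thus had the widest range of the members, 38.7-fold from its lowest to its highest library, and its 2 old PBS libraries also stood well apart from each other.

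Inhbb, which encodes the beta B subunit of activin B and inhibin B, has 2 exons at chr1:119415463-119422248 on the minus strand. Its TPM was 126 and 125 in young PBS, 401 and 418 in old PBS, and 82.6 and 105 in old MIT-001. These groups did not overlap either, but in another order than for Inhba, with MIT-001 lowest. The means were 126 ± 0.612, 410 ± 12.2 and 93.8 ± 15.9 TPM (SD, n = 2), so the spread within each group was small beside the gap from old PBS to the others.

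Between old PBS and young PBS, which asks how the ovary differs with age, Inhba was the only member that passed the test. It rose by 4.44 ± 0.35 (SE) on the log2(TPM + 1) scale, with a limma adjusted p of 0.0433 over all genes tested. On the same comparison 0.0364% of the 16473 genes passed (6 genes, 2 higher and 4 lower). Inhbb differed by 1.70 ± 0.21 and Inha by 1.16 ± 0.38 on that scale, and neither passed, with limma adjusted p of 0.0915 and 0.231. By the unadjusted limma p, 5 of the 9 members were under 0.05 (all 3 subunits, Fst and Acvr2a), against 18.1% of all genes.

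The Inhba call was not stable. It was lost without the filter on low values (limma adjusted p of 0.21) and with only the 4 libraries of the comparison (0.212). It held without young PBS replicate 1 (difference 4.65, adjusted p 0.0367) but not without young PBS replicate 2 (4.24, 0.0574), old PBS replicate 1 (4.91, 0.202) or old PBS replicate 2 (3.97, 0.436). Leaving out either MIT-001 library, which enters only through the shared spread, also ended the call (limma adjusted p of 0.217 and 0.219).

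The size of the Inhba difference also depended on the unit. StringTie is known to sum a gene's FPKM, a length-scaled abundance, over its transcripts, so a gene whose reads are assigned to a short transcript gets more FPKM per unit of coverage. Inhba has 2 GENCODE M21 transcripts, of 6390 and 1529 bases, and 3 in RefSeq. Its coverage per FPKM, relative to the value that most often recurs among the genes of a library, was 0.799 and 0.863 in young PBS, 0.405 and 0.445 in old PBS, and 0.410 and 0.440 in old MIT-001. Both young PBS libraries were thus higher than all 4 others, with a mean 1.96 times that of old PBS. Of 11750 genes with an FPKM of at least 1 in every library, 0.0936% shifted by 1.5 times or more without overlap in that comparison (11 genes, Inhba among them), 0.0596% between old MIT-001 and old PBS, and 0.145% between old MIT-001 and young PBS, again with Inhba.

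When TPM was recomputed from coverage, a choice made after seeing the data, Inhba was at 9.47 and 7.47 in young PBS, 70.3 and 149 in old PBS, and 29.8 and 35.9 in old MIT-001. The old MIT-001 values still lay between the other groups. The ratio of group means between old PBS and young PBS was 24.8 by deposited TPM and 12.9 from coverage. On the log2 scale the difference from coverage was 3.46 ± 0.38, which did not pass (limma adjusted p of 0.0815). Which Inhba transcripts were present could not be read from gene-level values and was not tested. For the other members this relative value was nearly the same in all 6 libraries: 0.454 to 0.468 for Inha, 0.896 to 0.906 for Fst, 0.294 to 0.304 for Acvr2b, and a constant close to 1 for the rest.

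**Figure D2:**
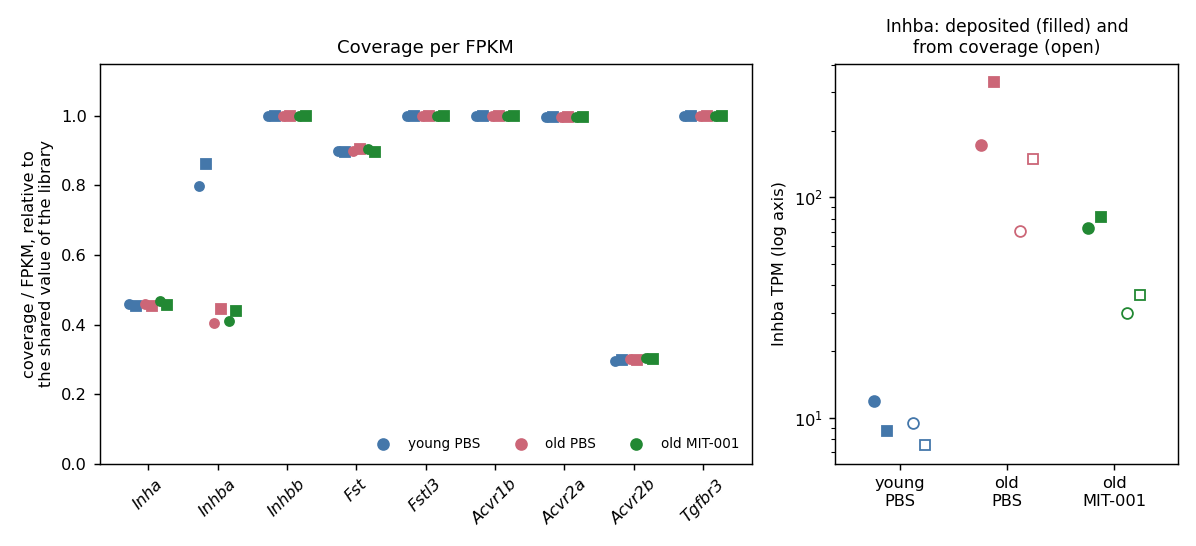
Left, coverage divided by FPKM relative to the shared value of each library (vertical axis, starting at 0) for the 9 genes, coloured by group, with circles for replicate 1 and squares for replicate 2; right, Inhba TPM on a log axis as deposited (filled) and recomputed from coverage (open). Inhba has by far the widest range on the left, at 0.799 and 0.863 in young PBS against 0.405 to 0.445 in the other 4 libraries.

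Between old MIT-001 and old PBS, which asks what the compound does at the same age, no member passed the limma test, and 0.0182% of all genes did (3 genes, all higher). The comparison uses the same old PBS libraries as the one above, so the signs of the 2 comparisons are not independent. Inhbb differed by -2.12 ± 0.21 on the log2(TPM + 1) scale, with a limma adjusted p of 0.0636 and a 95% interval from -2.62 to -1.62. Inhba differed by -1.63 ± 0.35 (limma adjusted p of 0.175) and Inha by -1.38 ± 0.38 (0.259). These were the 3 of 9 members with an unadjusted limma p under 0.05, against 11.8% of all genes.

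Fitted with only the 4 old libraries, which left out the spread between the young PBS libraries, Inhbb and Fst passed (limma adjusted p of 0.032 and 0.0322), with 356 genes passing in all. They also passed when either young PBS library was left out, and no member passed when any old library was left out.

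Between old MIT-001 and young PBS no member passed the limma test, and 0% of all genes did. Inhba was higher with MIT-001 in both libraries than in either young PBS library, by 2.81 ± 0.35 on the log2(TPM + 1) scale (limma adjusted p of 0.161), or by 1.84 from coverage (0.166). Inhbb was lower in both, by -0.43 ± 0.21, with a 95% interval from -0.93 to 0.07. Inha overlapped, at -0.21 with an interval from -1.14 to 0.72. Inhba and Acvr2a were the 2 of 9 members under an unadjusted limma p of 0.05, against 17.9% of all genes.

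**Figure D3:**
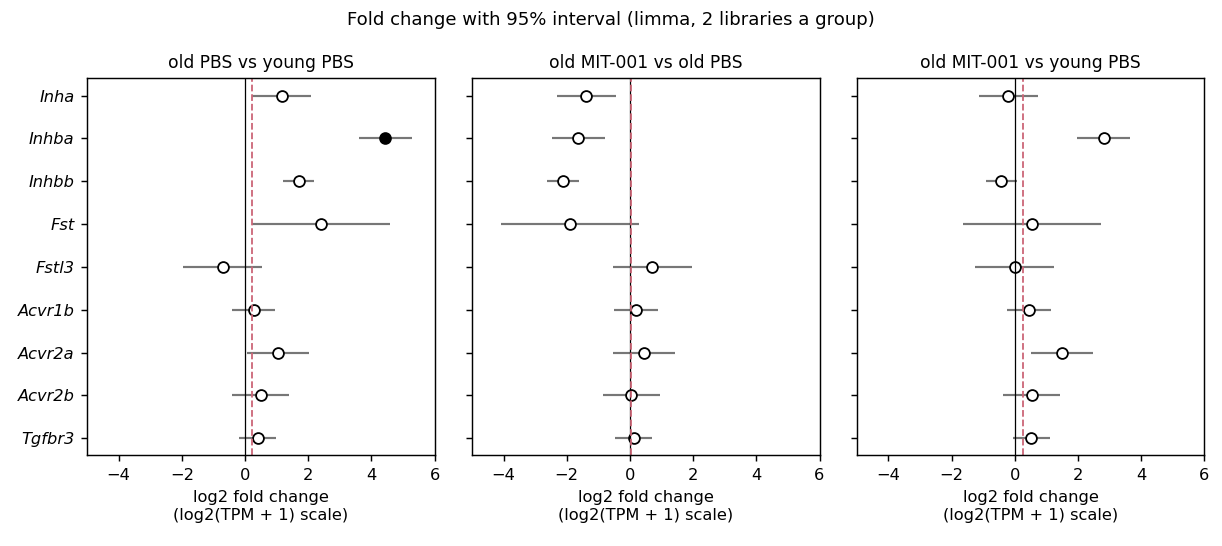
Log2 fold change on the log2(TPM + 1) scale (horizontal axis) of each gene in the 3 comparisons, with its 95% limma interval; the filled point passed at an adjusted p under 0.05 and the dashed line is the median of all genes tested. Only Inhba passed, between old PBS and young PBS, and the Inhbb interval between old MIT-001 and old PBS runs from -2.62 to -1.62.

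The balance of the subunits within a library was described by ratios of TPM, which do not depend on the library's total. Inha divided by the sum of Inhba and Inhbb was 14.9 and 15.3 in young PBS, 7.22 and 6.77 in old PBS, and 9.01 and 11.97 in old MIT-001. The alpha subunit thus exceeded the beta subunits in every library, by the least in old PBS, and the groups did not overlap by deposited TPM. From coverage the ratio was 6.93 and 7.02 in young PBS, 4.03 and 4.09 in old PBS, and 5.83 and 7.22 in old MIT-001, so old PBS was still lowest but the other groups overlapped. The log2 of this ratio differed by -1.11 between old PBS and young PBS and by -0.54 between old MIT-001 and young PBS, and from coverage by -0.78 and -0.10. Inhba divided by Inhbb was 0.0941 and 0.0692 in young PBS, 0.433 and 0.800 in old PBS, and 0.881 and 0.775 in old MIT-001. Old PBS and old MIT-001 overlapped in this ratio, and both lay above young PBS. From coverage it was 0.0751 and 0.0597, 0.175 and 0.356, and 0.361 and 0.341, so beta B exceeded beta A in all 6 libraries by either unit.

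**Figure D4:**
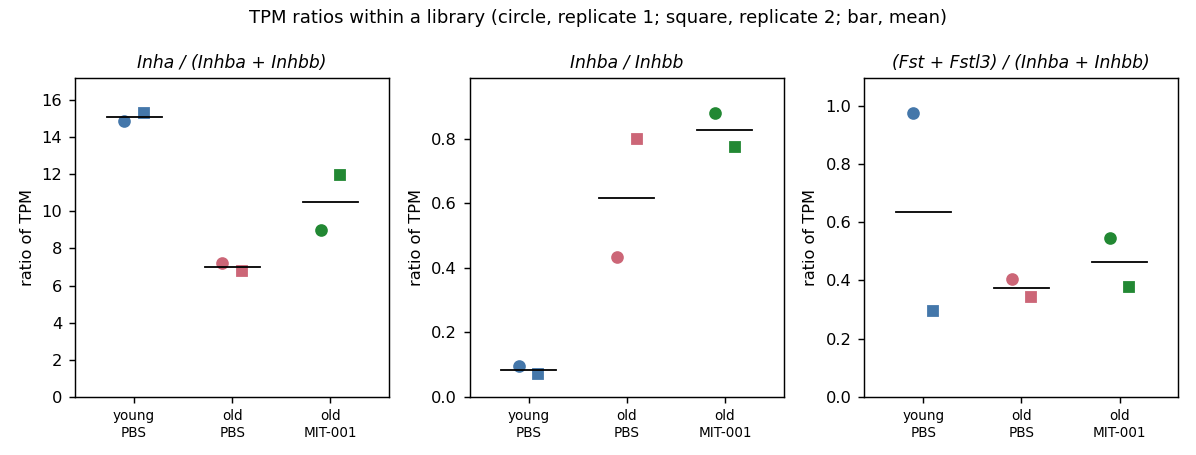
Ratios of TPM within each library (vertical axes, starting at 0) for the alpha over the beta subunits, beta A over beta B, and the 2 binding proteins over the beta subunits; circles are replicate 1, squares replicate 2, bars group means. The first ratio is 14.9 and 15.3 in young PBS and 7.22 and 6.77 in old PBS, while the third spans 0.294 to 0.978 within young PBS alone.

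Because the sum of the 10 granulosa markers was also highest in old PBS, the genes made in granulosa cells were set against it. Not every marker followed that order. Kitl was at 3.44 and 7.89 TPM in old PBS, against 23.8 and 16.9 in old MIT-001. Kitl, Amhr2 and Nr5a2 overlapped between old PBS and young PBS. Gja1, a gap junction gene that other cells express too, made up 44.3% to 62.5% of that sum, so the shares were also taken over the other 9, a choice made after seeing the data. Inhba was 0.945% and 0.898% of the full sum in young PBS, 6.35% and 9.39% in old PBS, and 6.23% and 5.27% in old MIT-001. Without Gja1 it was 1.75% and 1.61%, then 16.9% and 24.3%, then 12.4% and 11.2%. By deposited TPM, Inhba was thus higher in all 4 old libraries than in young PBS relative to either sum. Inhba TPM depends on the unit, and the size of these shares with it. They were not taken from coverage.

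For the other subunits the order of the groups depended on Gja1. Inha was 163% and 213% of the full sum in young PBS, 152% and 143% in old PBS, and 120% and 144% in old MIT-001. Without Gja1 it was 302% and 382%, then 404% and 370%, then 238% and 307%. Young and old PBS thus overlapped when Gja1 was left out, whereas with it both young PBS libraries were higher. Inhbb was 10.05% and 13.0%, then 14.7% and 11.7%, then 7.07% and 6.80% of the full sum. Without Gja1 it was 18.6% and 23.3%, then 39.1% and 30.4%, then 14.1% and 14.5%, so young and old PBS overlapped with Gja1 and did not without it. MIT-001 was lowest for Inhbb relative to either sum. No test was run on these shares, and the part of cell composition in the subunit differences was not tested.

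Follistatin, the high-affinity activin-binding protein encoded by Fst, lies at chr13:114452262-114458989 on the minus strand. Its TPM was 127 and 14.4 in young PBS, 223 and 251 in old PBS, and 70.7 and 56.8 in old MIT-001. Old PBS was above both other groups, and the young PBS replicates spanned the MIT-001 values. The means were 70.8 ± 79.6, 237 ± 19.8 and 63.7 ± 9.83 TPM (SD, n = 2), so the young PBS mean describes neither of its libraries.

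Fst differed by 2.42 ± 0.90 on the log2(TPM + 1) scale between old PBS and young PBS (limma adjusted p of 0.252) and by -1.88 ± 0.90 between old MIT-001 and old PBS (0.493). The first value depended on which young PBS library was kept. Without young PBS replicate 2 the difference was 0.89, and without young PBS replicate 1 it was 3.94. Young PBS replicate 2 also had the lowest oocyte sum, and relative to the granulosa markers its Fst was 1.499%, against 10.1% in replicate 1 (2.69% and 18.8% without Gja1). The other libraries were at 8.16% and 7.04% in old PBS and 6.05% and 3.67% in old MIT-001 of the full sum.

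Fstl3 encodes follistatin-like 3, a related activin-binding protein, at chr10:79777274-79782630 on the plus strand. Its TPM was 7.72 and 24.9 in young PBS, 9.43 and 7.09 in old PBS, and 14.2 and 13.7 in old MIT-001. Its highest library, young PBS replicate 2, was the one with the least Fst. It was the only member lower on average in old PBS than in young PBS, at -0.71 ± 0.52, with a 95% interval from -1.96 to 0.55 and overlapping groups. Without young PBS replicate 2 that difference was 0.076, and without replicate 1 it was -1.49 (limma adjusted p of 0.0484). Against old PBS, the old MIT-001 difference was 0.71 ± 0.52 (limma adjusted p of 0.718), with both MIT-001 libraries higher.

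Fst made up 94.3% and 36.8% of the TPM of the 2 binding proteins in young PBS, 95.9% and 97.3% in old PBS, and 83.2% and 80.5% in old MIT-001. Follistatin was thus the main transcript of the pair in 5 of 6 libraries. Their sum divided by that of Inhba and Inhbb was 0.978 and 0.294 in young PBS, 0.405 and 0.343 in old PBS, and 0.547 and 0.378 in old MIT-001. In every library the beta subunits exceeded the binding proteins, and the groups overlapped in this ratio. Inhba TPM depends on the unit, and this ratio with it.

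The type I and type II receptor genes were at most 21.1 TPM in any library, below Inha and Inhbb throughout, while Acvr1b was close to Inhba in young PBS. The type I receptor gene Acvr1b, with 9 exons at chr15:101174072-101213684 on the plus strand, had 10.9 and 15.8 TPM in young PBS, 16.0 and 16.0 in old PBS, and 15.8 and 21.1 in old MIT-001. The old PBS libraries were nearly equal and just above the higher young PBS library. The difference between old PBS and young PBS was 0.27, with a 95% interval from -0.42 to 0.96, and its sign turned when libraries were centred on their median (-0.053) or quantile normalized (-0.019). For old MIT-001 against old PBS it was 0.18, with an interval from -0.51 to 0.88.

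Acvr2a, a type II receptor gene at chr2:48814109-48903264 on the plus strand, had 3.46 and 4.003 TPM in young PBS, 5.73 and 13.3 in old PBS, and 12.6 and 11.99 in old MIT-001. Both young PBS libraries were lower than all 4 old libraries, and the old PBS libraries spanned those with MIT-001. The difference was 1.05 ± 0.40 between old PBS and young PBS (limma adjusted p of 0.261) and 1.49 ± 0.40 between old MIT-001 and young PBS (0.161). The end of Acvr2a overlaps Orc4, a replication-origin gene on the opposite strand with 6.73 to 25.1 TPM. Strand settings were not given, so reads of that overlap cannot be assigned to either gene. The genes that overlap other members were at 0.797 TPM or less.

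Acvr2b, the other type II receptor gene, lies at chr9:119401583-119442148 on the plus strand and had the lowest mean of the members in each group. Its TPM was 3.03 and 2.02 in young PBS, 4.66 and 3.24 in old PBS, and 5.28 and 3.06 in old MIT-001. The old libraries were higher than those of young PBS, and the old groups overlapped. The difference between old PBS and young PBS was 0.49, with a 95% interval from -0.41 to 1.39, and between old MIT-001 and old PBS it was 0.04, with an interval from -0.86 to 0.95. The ratio of Acvr2a to Acvr2b was 1.14 and 1.99 in young PBS, 1.23 and 4.09 in old PBS, and 2.39 and 3.92 in old MIT-001. Acvr2a exceeded Acvr2b in every library. Acvr2b values rest on a coverage per FPKM of about 0.3 of the shared value, so from coverage its group means were 0.746, 1.18 and 1.26 TPM.

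Tgfbr3, the betaglycan gene, has 17 exons at chr5:107106567-107289629 on the minus strand and was the most abundant of the receptor and co-receptor members in all 6 libraries. Its TPM was 25.5 and 34.2 in young PBS, 35.4 and 43.9 in old PBS, and 44.9 and 41.0 in old MIT-001. Young PBS was lowest without overlap, and the old groups overlapped. The difference between old PBS and young PBS was 0.40, with a 95% interval from -0.18 to 0.99, and between old MIT-001 and old PBS it was 0.12, with an interval from -0.46 to 0.70. Tgfbr3 had the narrowest range of the members, 1.76-fold over the 6 libraries.

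By TPM, 8 of 9 members were higher in both old PBS libraries than in both young PBS libraries, against 38.1% of all genes. None was lower without overlap, against 11% of all genes. By FPKM, Acvr1b overlapped, at 5.747 and 6.996 in young PBS and 7.002 and 6.932 in old PBS. Acvr2b overlapped too, at 1.604 and 0.894, then 2.036 and 1.407 FPKM. The share of all genes was not taken by FPKM. The median difference of the members was 1.05 on the log2(TPM + 1) scale, and that of all genes was 0.23. Centring libraries on their median moved the median of all genes to -0.09 and that of the members to 0.73. By unadjusted limma p, the share of genes under 0.05 that were higher went from 80.5% to 36.2% with that centring, so the surplus of higher genes in this comparison depends on the scaling. The 3 subunits, Fst, Acvr2a, Acvr2b and Tgfbr3 stayed higher in old PBS under each scaling tried. With median centring, though, the difference was only 0.17 for Acvr2b and 0.08 for Tgfbr3. Acvr1b turned lower with median centring and with quantile normalization.

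With MIT-001, set against old PBS, 4 of 9 members were lower without overlap, namely the 3 subunits and Fst, against 24.2% of all genes. Fstl3 alone was higher without overlap, against 27.2% of all genes. The receptor genes and Tgfbr3 overlapped. The members' median was 0.04 and that of all genes 0.03. Set against young PBS, the MIT-001 libraries were higher without overlap by TPM in 5 of 9 members, against 37.3% of all genes. These were Inhba, the 3 receptors and Tgfbr3. Inhbb was lower, against 6.56%. By FPKM, Acvr1b (6.846 and 9.252 with MIT-001) and Acvr2b (2.283 and 1.339) overlapped young PBS. The members' median was 0.52 and that of all genes 0.24, which centring moved to 0.11 and -0.17.

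Over the 6 libraries the log2(TPM + 1) values of Inha and Inhbb had a Pearson r of 0.97, whereas Inhba had an r of 0.66 with Inha and 0.64 with Inhbb. The r was -0.95 between Fst and Fstl3 and 0.91 between Acvr2a and Tgfbr3. These are descriptions over 6 libraries in 3 groups, and all points share the group structure and the markers that vary with it. Among 9344 tested genes averaging 10 TPM or more, those most like Inha were Rph3al (r of 0.991), Fshr (0.987), Rpa1 (0.982), Rrm2 (0.981) and Eef1akmt1 (0.978). Those most like Inhba were Zfp507 (0.998), Erlin1 (0.997), Tor1aip2 (0.996), Ubr7 (0.993) and Csnk2a1 (0.992). Those most like Inhbb were Cyfip2 (0.994), Mrpl17 (0.994), Sema3g (0.987), Pgap2 (0.984) and Suv39h1 (0.981). The lists share no gene. Their fold sizes vary, since r ignores size: Mrpl17 ran only from 18.6 to 20.5 TPM, while Fshr ran from 13.4 to 62.3.

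Gonadotropin receptors and granulosa genes, among them FSH-responsive ones, were read from a list of 12 genes. Whether their levels followed FSH or granulosa cell content was not tested. None of the 12 passed the limma test in any comparison. In old PBS all 12 were higher on average than in young PBS, 9 of them without overlap and 8 with an unadjusted p under 0.05, and the median was 1.32. Over all genes tested, 68.1% were higher on average, 38.1% were higher without overlap and 18.1% had an unadjusted p under 0.05. With median centring, quantile normalization or FPKM, 11 of the 12 were higher and Amhr2 was lower. Fshr, the FSH receptor, had 17.7 and 19.9 TPM in young PBS, 43.7 and 62.3 in old PBS, and 13.4 and 25.8 in old MIT-001. That is the same order of groups as for Inha, with old PBS highest and the others overlapping. Cyp19a1, the aromatase gene, differed by 2.71 ± 0.58 between old PBS and young PBS (limma adjusted p of 0.21), and Gja1, a gap junction gene, by 1.96 ± 0.32 (0.155). In old MIT-001 against old PBS, 11 of 12 were lower on average, 9 without overlap and 7 with an unadjusted p under 0.05, and the median was -1.29. Of all genes 24.2% were lower without overlap and 11.8% had an unadjusted p under 0.05. Hsd17b1, which converts estrone to estradiol, differed there by -1.39 ± 0.22 (limma adjusted p of 0.104). The list shares 9 genes with the granulosa markers.

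Of 12 genes that carry or restrain the SMAD signal, 11 were tested and none passed. All 11 were higher on average in old PBS than in young PBS, 5 with an unadjusted p under 0.05, with a median of 0.52, while of all genes 68.1% were higher and 18.1% had such a p. With median centring or quantile normalization 8 were higher, 1 had an unadjusted p under 0.05, and Smad2, Smurf1 and Ski were lower. Skil, which encodes the SMAD corepressor SnoN, had 15.7 and 9.94 TPM in young PBS, 37.4 and 44.6 in old PBS, and 33.9 and 45.1 in old MIT-001, a difference of 1.63 ± 0.29 between old PBS and young PBS (limma adjusted p of 0.172). Smurf2, a ubiquitin ligase of the pathway, differed by 0.71 ± 0.21 and the common partner Smad4 by 0.69 ± 0.22. The median of the 11 in old MIT-001 against old PBS was -0.06, with 4 higher and 7 lower, and 0.03 from coverage, with 6 higher and 4 lower of 10. All 4 old libraries were thus alike in Skil, in contrast to the subunits.

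Other receptors and ligands gave no call either. Tgfbr1, the type I receptor for TGF-beta, had 24.6 and 19.6 TPM in young PBS, 86.5 and 113 in old PBS, and 48.2 and 80.9 in old MIT-001, a difference of 2.12 ± 0.31 between old PBS and young PBS (limma adjusted p of 0.131). Bambi, a decoy receptor that lacks kinase activity, had 12.3 and 18.6, then 8.43 and 8.06, then 34.0 and 22.6 TPM, a difference of 1.64 ± 0.32 between old MIT-001 and old PBS (0.144). Tgfbr3l, a betaglycan relative, differed by 1.77 ± 0.79 between old MIT-001 and young PBS (0.31). It had 19.4 and 2.88 TPM in young PBS, 22.9 and 10.3 in old PBS, and 32.7 and 26.2 in old MIT-001. The young PBS replicates thus stood far apart. Of 8 receptors and co-receptors 6 were tested, with 4 higher and 2 lower in old PBS than in young PBS (2 and 4 with median centring). An unadjusted limma p under 0.05 was found for 2 of these 6. Over all genes tested, 68.1% were higher on average in that comparison and 18.1% had such a p. The remaining activin subunit genes Inhbc and Inhbe and the myostatin gene Mstn were listed at 0 in all 6 libraries. Of the 4 other ligand genes tested, Gdf11 was the only one with an unadjusted p under 0.05 (0.87 ± 0.34 between old PBS and young PBS, limma adjusted p of 0.266).

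Of 6 further antagonist genes, Fstl1 and Wfikkn2 were tested. Fstl1 differed by 0.70 ± 0.23 between old MIT-001 and young PBS (limma adjusted p of 0.2) and Wfikkn2 by 0.93 ± 0.34 between old MIT-001 and old PBS (0.365). Of 5 genes for subunit processing or binding, all were tested, and Pcsk5, a proprotein convertase, had the smallest p, at 0.81 ± 0.26 between old PBS and young PBS (limma adjusted p of 0.229) and -0.67 ± 0.26 between old MIT-001 and old PBS (0.4). Furin, the convertase best known for cleaving these precursors, had 54.5 and 170 TPM in young PBS, 99.9 and 99.2 in old PBS, and 91.6 and 106 in old MIT-001, with overlapping groups. The pituitary hormone gene Cga was listed at 0 in every library and Fshb was at most 0.0402 TPM. Lhb, the other gene of that list, was tested and did not pass in any comparison. It had 1.07 and 0.630 TPM in young PBS, 1.52 and 0.871 in old PBS, and 0.599 and 5.89 in old MIT-001.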

How the data were processed

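Ovary RNA was sequenced in 6 libraries, 2 per group. Per the submitters' processing notes, the tools were Trimmomatic, HISAT2 and StringTie and the build mm10. Their versions, the annotation used and any strand setting are not given in the sources. TPM and FPKM, as deposited, are abundances scaled for transcript length per the file headers. Coverage, as deposited, is a signal of mean read depth over a gene. Counts were not used, so only the spread between libraries shows the precision.

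Symbols came from a RefSeq gene table (GRCm38.p6) by NCBI Gene ID. It matched 45683 or 45684 rows of a library, and the other 98 (0.0145% to 0.0301% of TPM) were left out. Reads shared with paralogs or overlapping genes may be divided. On log2(TPM + 1) of all 6 libraries, limma 3.58.1 (R 4.3.3) fitted a mean for each group with an intensity trend (residual degrees of freedom 3, prior 3.12). Tests were two-sided, and genes were called under 0.05 after Benjamini-Hochberg adjustment over 16473 genes. The script was tested on simulated data. The shared coverage per FPKM of a library was the value within 0.5% of which 31.6% to 33.6% of genes with an FPKM above 5 lay.

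All members are given. From the pathway lists, up to 3 genes with the smallest p are named, and genes like a subunit are the 5 with the highest r without clone names or pseudogenes (Fshr is named as one of these). Furin, Cga and Fshb, some cell type markers, the genes listed at 0, and those whose direction turned with the scaling were named outside that rule after their values were seen. Members, lists and tests were chosen with earlier results of these data known. The motif search used the 250 bases before the start in the RefSeq promoter table, which for some genes lies within the gene.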

Additional observations from a re-analysis of the deposited data

How the results depend on the processing

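Between old PBS and young PBS, 6 genes and 1 member (Inhba) passed. Without a filter these counts were 1 and 0, with only the 4 libraries compared 0 and 0, and from coverage 1 and 0. FPKM gave 11 genes, median centring 15 and quantile normalization 17, each with 1 member. Leaving out 1 library gave 0 to 948 genes and 0 to 4 members, with 948 genes without young PBS replicate 1 and 14 without young PBS replicate 2. Between old MIT-001 and old PBS, 3 genes and 0 members passed, against 0 genes without a filter, 1 with FPKM, 1 with median centring, and 356 genes and 2 members with only the 4 libraries. Leaving out 1 library gave 0 to 372 genes and 0 to 2 members. The cause of these shifts was not tested. Between old MIT-001 and young PBS every alternative gave 0 genes.

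Some values without a call changed sign. For old PBS against young PBS, Acvr1b was -0.053 with median centring and -0.019 with quantile normalization, and Fstl3 ran from -1.49 to 0.076 when 1 library was left out. For old MIT-001 against old PBS, Acvr2b was -0.0497 with median centring and -0.23 with quantile normalization. With 1 library left out, Acvr2b ran from -0.27 to 0.36, Acvr2a from -0.10 to 0.99, Tgfbr3 from -0.033 to 0.27 and Acvr1b from -0.0128 to 0.38. For old MIT-001 against young PBS, Fstl3 was 0.012 with a pseudocount of 0.1, Inha was 0.038 with quantile normalization, and with 1 library left out Fst ran from -0.99 to 2.06, Fstl3 from -0.79 to 0.78 and Inha from -0.55 to 0.12.

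The labels give replicates 1 and 2 in every group but tie them to nothing shared. The difference of replicate 1 and replicate 2 had a correlation of 0.00656 between young and old PBS, 0.175 between the old groups, and 0.239 between young PBS and old MIT-001. With the replicate number as a block, 1 gene and 0 members passed between old PBS and young PBS (Inhba adjusted p 0.0987) and 0 genes between old MIT-001 and old PBS. With 2 libraries a group, only differences far above the spread can pass.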
